A study of Homo sapiens with 38 samples.

Results

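The response of the human neuroblastoma cell line NB1643 to palbociclib was described from 4 RNA-seq libraries, out of 38 samples in the series. Palbociclib inhibits the kinases CDK4 and CDK6. The comparison set 2 libraries of NB1643 cells given 3 μM palbociclib for 72 h against 2 libraries labelled as NB1643 without treatment, and it was made across all genes rather than for a chosen gene set. Both groups were grown in DMEM with L-glutamine and FBS. The vehicle given to the controls, if any, is not given in the sources used here. NB1643 is 1 established line, so its response stands for that line alone. The libraries were fitted together with those of 3 further lines under palbociclib or no treatment, 16 libraries in all. NB1691 had the same dose and time as NB1643, whereas CHLA15 and CHLA20 received 300 nM for 72 h.

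The labels name a cell line as the source but describe the RNA extraction as from xenograft tissue, and the study's methods describe extraction from cells. Counts on genes ranged from 45457371 to 66132762 in the 4 NB1643 libraries. Of the 50778 genes listed, 22133 had enough counts to be tested. Nothing in the labels says that the libraries of a group came from separate cultures, so p-values measure only the spread between these libraries, which may be technical. The NB1643 controls differed from each other more than the treated libraries did: 121 genes were over 2-fold apart between the controls and 1 gene between the treated libraries. Of those 121 genes, 64 are annotated as pseudogenes, 51 are named for a ribosomal protein or EEF1A1, and 15 were called between palbociclib and control.

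Markers of the sympathetic neuroblast, the cell that neuroblastoma resembles, were measured to check the label. All 10 exceeded 1 CPM (counts per 1000000, scaled by TMM) in every NB1643 library. Their summed level was 4962 to 5200.3 CPM in the controls and 6974 to 7039 CPM in the treated libraries. The 10 leukocyte markers summed to 0.134 to 0.205 CPM in the controls and 0.123 to 0.261 CPM with palbociclib, and 6 of them, among them the T-cell gene CD3E, had 0 counts throughout. PECAM1 and CDH5, which define endothelium, also had 0 counts throughout, and the 10 endothelial markers summed to at most 2.25 CPM. Epithelial markers summed to at most 2.50 CPM, with EPCAM as the leading member. Of the 10 Schwann cell markers, SOX10 and PMP2 had 0 counts, and the sum of 22.9 to 23.5 CPM in controls and 29.8 to 31.2 CPM in treated libraries came mostly from 1 member that neurons also express. Markers of fibroblasts or mesenchymal cells summed to 264.9 to 269 CPM in controls and 204 to 206 CPM in treated libraries, and 7 of the 10 were over 1 CPM, a set that neuroblastoma cells of mesenchymal type also express.

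D-type cyclins bind CDK4 and CDK6, and the active kinases phosphorylate pRB, the product of RB1. Unphosphorylated pRB holds the E2F transcription factors and silences the genes that E2F drives, many of which encode the replication machinery. A related complex, DREAM, represses E2F and cell-cycle genes in quiescent cells, and the MuvB core that it shares with B-MYB and FOXM1 binds the CHR element in the promoters of late cell-cycle genes. Neuroblastoma arises from sympathetic precursors, and its cells can express the enzymes of catecholamine synthesis, neuronal genes, the receptor RET and the oncogene MYCN.

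With palbociclib, 4487 genes were called higher (20.3% of the genes tested) and 4354 lower (19.7%), so 39.9% of genes were called. Counts of list members below are to be read beside these shares. An unadjusted p under 0.05 was reached by 10394 genes (47.0%). A gene was called where its adjusted p, from the quasi-likelihood F test of edgeR with Benjamini-Hochberg adjustment over all tested genes, was under 0.05. Large falls outnumbered large rises: 1066 called genes fell by over 1 on the log2 scale (4.82%) and 796 rose by over 1 (3.60%), and beyond 2 the counts were 361 (1.63%) and 201 (0.908%). The median log2 fold change was 0.47 among genes called higher and -0.51 among genes called lower. Both treated libraries lay above both controls for 7299 genes (33%) and below both for 6530 genes (29.5%). In these bulk samples, fewer cells in a phase of the cycle and less RNA of a gene per cell cannot be told apart.

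The promoters of genes that fell were searched for the letters of both elements, since these are the sequences through which E2F and the MuvB core act. RefSeq windows of 300 bases on GRCh38.p14, from 250 bases before to 50 bases after each start, were read for 13321 of the tested genes. The E2F search used TTTCCCGC, TTTGGCGC, TTTCGCGC and TTTGCCGC on both strands. The windows below were chosen among those that hold these letters, and belong to genes of the E2F family, the pocket protein gene RBL1, and genes of replication licensing, the replication fork and thymidylate synthesis, and to MYCN. Capitals mark the E2F letters or their reverse complement.
E2F1, chr20:33686386-33686445, minus strand, nearest match 20 bases before the start: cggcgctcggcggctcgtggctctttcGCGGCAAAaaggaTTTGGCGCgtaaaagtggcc
E2F2, chr1:23531242-23531301, minus strand, nearest match 42 bases before the start: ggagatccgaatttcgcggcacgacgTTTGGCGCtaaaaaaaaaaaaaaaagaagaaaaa
RBL1, chr20:37095998-37096057, minus strand, nearest match 16 bases before the start: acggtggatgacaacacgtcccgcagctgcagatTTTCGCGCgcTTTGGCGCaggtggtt
CDT1, chr16:88803728-88803787, plus strand, nearest match 35 bases before the start: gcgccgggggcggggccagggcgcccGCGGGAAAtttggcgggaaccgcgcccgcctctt
GINS2, chr16:85688955-85689014, minus strand, nearest match 31 bases before the start: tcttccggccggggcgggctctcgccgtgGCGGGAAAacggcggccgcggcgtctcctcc
PCNA, chr20:5126648-5126707, minus strand, nearest match 59 bases before the start: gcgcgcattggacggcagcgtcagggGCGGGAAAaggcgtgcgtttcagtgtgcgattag
TYMS, chr18:657588-657647, plus strand, nearest match 39 bases before the start: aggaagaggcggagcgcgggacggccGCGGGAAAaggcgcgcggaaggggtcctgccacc
MYCN, chr2:15940352-15940411, plus strand, nearest match 172 bases before the start: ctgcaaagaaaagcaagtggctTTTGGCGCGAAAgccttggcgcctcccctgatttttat

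The CHR search used TTTGAA on both strands, a motif short enough to occur often in any sequence. The windows below were chosen among those that hold these letters and belong to genes of mitosis and to CKS1B, which binds cyclin-dependent kinases. Other genes with low fold changes, such as AURKB, KIF20A, UBE2C and CCNA2, had no window with these letters before the start to print. Matches after the start were not printed and some tested genes had no window. Absence here therefore does not show that a promoter lacks the letters. Capitals mark TTTGAA or its reverse complement TTCAAA.
MKI67, chr10:128126424-128126483, minus strand, nearest match 29 bases before the start: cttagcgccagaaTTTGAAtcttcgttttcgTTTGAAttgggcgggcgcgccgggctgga
CENPA, chr2:26785996-26786055, plus strand, nearest match 18 bases before the start: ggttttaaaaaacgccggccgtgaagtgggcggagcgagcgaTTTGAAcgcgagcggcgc
HMMR, chr5:163460572-163460631, plus strand, nearest match 22 bases before the start: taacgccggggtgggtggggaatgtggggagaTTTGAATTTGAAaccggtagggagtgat
TOP2A, chr17:40418014-40418073, minus strand, nearest match 151 bases before the start: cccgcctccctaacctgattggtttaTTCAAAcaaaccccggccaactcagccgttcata
PLK1, chr16:23678829-23678888, plus strand, nearest match 29 bases before the start: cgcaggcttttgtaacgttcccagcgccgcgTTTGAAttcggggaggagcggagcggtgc
CKS1B, chr1:154974621-154974680, plus strand, nearest match 30 bases before the start: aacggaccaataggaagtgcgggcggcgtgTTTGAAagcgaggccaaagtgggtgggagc
HJURP, chr2:233854613-233854672, minus strand, nearest match 111 bases before the start: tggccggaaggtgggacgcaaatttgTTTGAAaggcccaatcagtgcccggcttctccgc

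E2F letters occurred in 3.31% of all 35116 promoter windows and in 4.46% of those of tested genes. The share was 11.2% for genes lower by over 2 on the log2 scale, 9.08% for genes lower by 1 to 2, 5.60% for genes lower by under 1, 4.09% for genes not called, 3.49% for genes higher by under 1 and 1.12% for genes higher by over 1. The share was thus larger in each class with a deeper fall. CHR letters occurred in 15.2% of all windows and 11.1% of those of tested genes, against 29.4% for genes lower by over 2 and 15.1% for genes lower by 1 to 2. In genes not called the CHR share was 11.1%, and in genes higher by over 1 it was 11.9%.

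The gene lists described below differed in which letters their windows held. Of 30 windows of licensing and origin firing genes, 43.3% held E2F letters and 3.33% CHR letters, and of 36 replication fork windows 36.1% and 5.56%. The order was the opposite for mitotic genes: of 34 windows of mitotic kinesins, condensin and cytokinesis genes, 8.82% held E2F letters and 76.5% CHR letters, and of 22 kinetochore windows 13.6% and 50%. Windows of catecholamine genes held E2F letters in 0 of 15 and CHR letters in 6.67%. A match describes the letters only, and no binding was measured here.

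**Figure D1:**
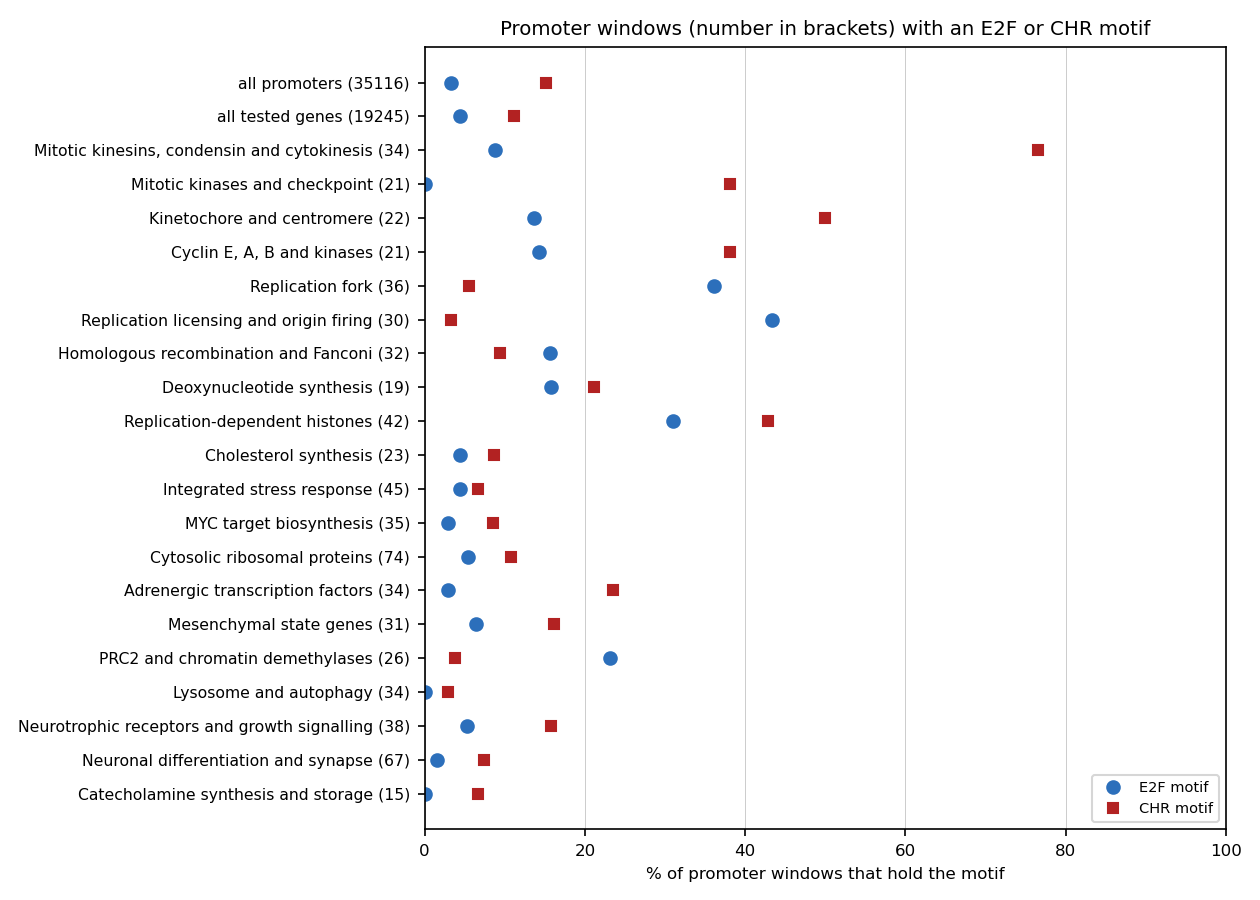
Share of promoter windows, in percent on the x axis, that hold an E2F motif (circles) or a CHR motif (squares), for all promoters, all tested genes and 20 gene lists (y axis), with the number of windows in brackets. Among the lists drawn, E2F letters are most frequent in the licensing list (43.3%), followed by the fork list (36.1%), and CHR letters in the mitotic kinesin list (76.5%).

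Of the kinase complex itself, CCND1 and CDK6 rose and CDK4 fell. CCND1, which encodes cyclin D1, had 979 and 888 CPM in the controls and 1624 and 1622 CPM with palbociclib. Both treated libraries were above both controls, and the log2 fold change was 0.80 (SE 0.05, adjusted p = 2.65e-10). The gene lies at chr11:69455924-69469242 on GRCh37. CDK6, a target of the drug, had 579.8 and 542 CPM and then 664 and 713 CPM, with a log2 fold change of 0.30 (SE 0.08, adjusted p = 0.0055), a call that was lost without control library 2 (adjusted p = 0.0597) or without palbociclib library 2 (0.0624). The other target, CDK4, went from 221 and 227 CPM to 184 and 177 CPM (-0.31, adjusted p = 0.000335); its exons overlap those of TSPAN31.

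The pocket proteins, which bind E2F, were all called lower. RB1 had 68.5 and 79.1 CPM in the controls and 51.4 and 52.4 CPM in the treated libraries (log2 fold change -0.51, SE 0.06). RBL1, which encodes p107 and is itself an E2F target, had 25.9 and 27.7 CPM and then 9.27 and 8.96 CPM (-1.55, SE 0.07), so its treated libraries lay far below both controls. RBL2, which encodes the p130 of quiescent cells, changed by -0.18 (adjusted p = 0.0169). That call was lost without control library 2 (adjusted p = 0.0754), palbociclib library 1 (0.0978) or palbociclib library 2 (0.0713), and with upper-quartile scaling (0.11). Of 10 genes in the axis, 2 were called higher and 5 lower, with a median log2 fold change of -0.21, against 0 for all genes tested. Only 3 were lower without control library 2 or palbociclib library 2, and 1 was higher without the latter. CCND2 (log2 fold change -1.16, adjusted p = 0.166, at 12 counts or fewer per library), CCND3 (-0.13, adjusted p = 0.217) and CDK7 (0.17, adjusted p = 0.0736, or 0.0414 with DESeq2) were not called. CCNH, the cyclin of the CDK-activating kinase, changed by -0.24 (adjusted p = 0.014), a call lost without control library 2 (adjusted p = 0.145) or palbociclib library 2 (0.118), and with upper-quartile scaling (0.0538).

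Of the E2F and DP family, 7 of 10 genes were called lower and 0 higher. E2F1 (GRCh37 chr20:32263283-32274191), an activator whose window is printed above, had 123 and 110.2 CPM in the controls and 22.0 and 21.9 CPM with palbociclib, a log2 fold change of -2.41 (SE 0.06, adjusted p = 9.21e-16). E2F2, another activator, had 17.3 and 14.8 CPM and 1.06 and 1.39 CPM (-3.74, SE 0.13). The atypical repressors E2F7 and E2F8 fell furthest: E2F7 went from 8.84 and 8.63 CPM to 0.230 and 0.266 CPM (-5.14, SE 0.17). E2F8 (chr11:19245610-19263167) went from 13.5 and 13.3 CPM to 0.138 and 0.143 CPM, which is 988 and 691 counts against 9 and 7, and its log2 fold change of -6.55 (SE 0.14) was the lowest among the genes eligible for naming. E2F8 was thus nearly absent from the treated libraries. Smaller falls were called for E2F5 (-0.68), E2F3 (-0.23) and the dimerization partner TFDP1 (158 and 169.6 CPM, then 114 and 115 CPM, -0.51). E2F4, the E2F of the DREAM complex, had 38.6 and 38.1 CPM and 39.7 and 37.3 CPM, overlapping groups (log2 fold change 0.01, 95% interval -0.11 to 0.12). E2F6 (-0.06, adjusted p = 0.41) and TFDP2 (0.19, adjusted p = 0.0654) were also not called, although DESeq2 called TFDP2 (0.047), and 1 member was called higher without control library 1.

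Of the 8 subunits of DREAM and its B-MYB counterpart, 7 were lower and 0 higher. MYBL2, which encodes B-MYB, had 175 and 158 CPM and then 10.3 and 9.90 CPM (-4.04, SE 0.08), and FOXM1, the forkhead factor of G2/M genes, had 205 and 188 CPM and then 15.5 and 16 CPM (-3.64, SE 0.06). MYBL1, its A-MYB relative, fell as well (11.8 and 11.7 CPM to 3.33 and 3.61 CPM, -1.76). The MuvB core moved less, with LIN52 at -0.55 and the histone chaperone RBBP4 at -0.34.

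Of 7 inhibitors of cyclin-dependent kinases, 5 were called lower and 0 higher. CDKN2C, which encodes the CDK4/6 inhibitor p18, had 124 and 127 CPM in the controls and 48.6 and 48.0 CPM in the treated libraries (-1.37, SE 0.06, adjusted p = 8.52e-13). CDKN2A, which encodes p16 and ARF, had 4.5 and 3.66 CPM and then 2.39 and 2.17 CPM (-0.85, SE 0.13). CDKN1B, which encodes p27, had 150.4 and 179 CPM and then 112 and 114 CPM (-0.54, SE 0.06), with both treated libraries below both controls. CDKN2D changed by -0.38 (adjusted p = 0.00265). CDKN1A, which encodes p21, had 37.9 and 34.9 CPM and then 31.6 and 32.6 CPM (-0.18, adjusted p = 0.0203), a call lost without control library 1 (adjusted p = 0.188), palbociclib library 1 (0.156) or palbociclib library 2 (0.056), with DESeq2 (0.0593) and with upper-quartile scaling (0.09). CDKN1C (95% interval of the log2 fold change -0.25 to 0.24) and CDKN2B, at 10 counts or fewer per library, were not called.

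**Figure D2:**
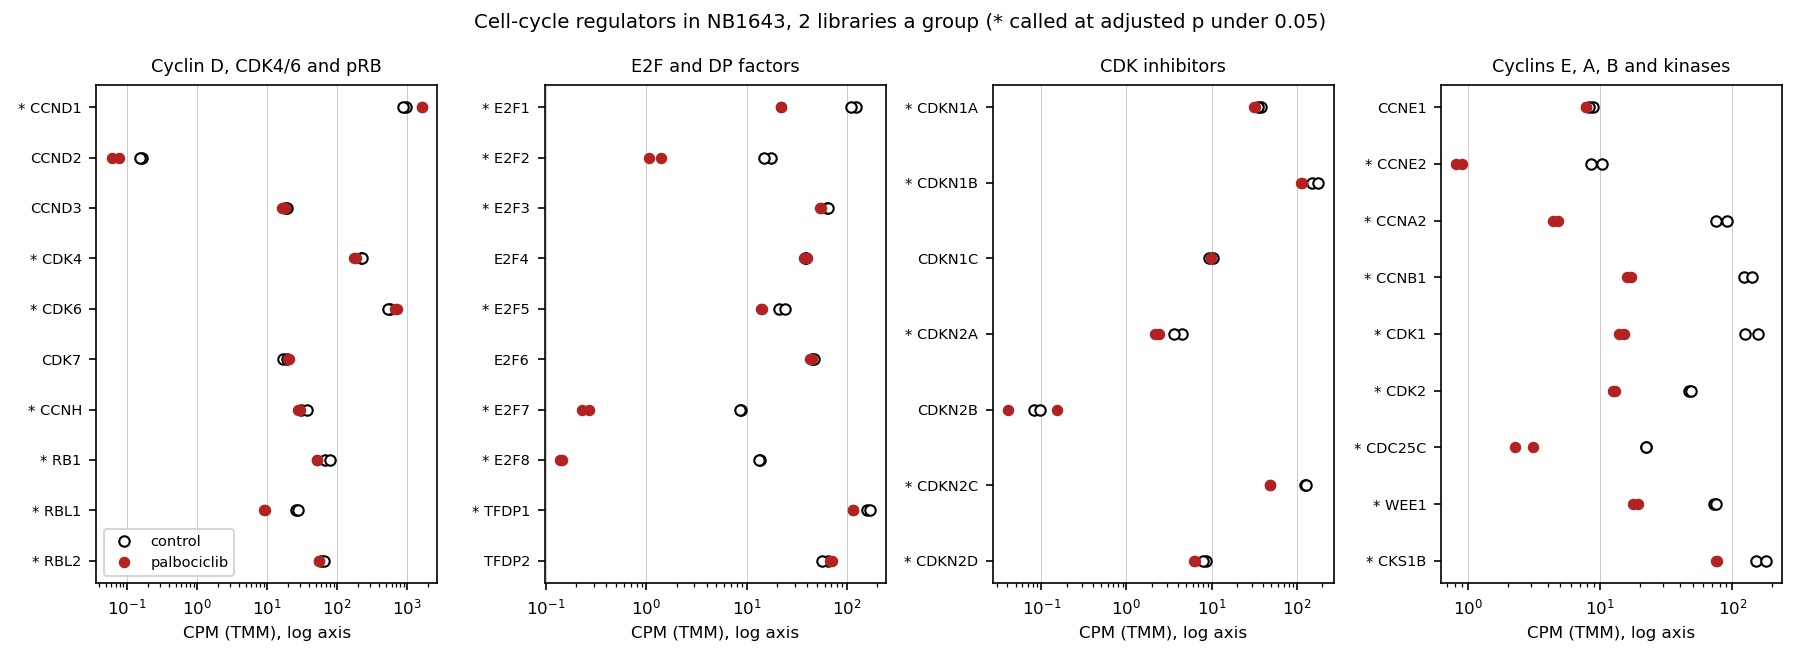
Level of each gene in CPM (x axis, log scale) in the 2 control libraries (open circles) and the 2 palbociclib libraries (filled circles) of NB1643, for genes of 4 lists of cell-cycle regulators that are named in the text, with * before genes called at an adjusted p under 0.05. CCND1 and CDK6 sit above their controls, whereas E2F7, E2F8 and CCNA2 sit far below them and CCNE1 sits close to its controls.

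Cyclins and kinases of the later cycle fell almost together: 16 of 17 were called lower, 0 higher, with a median log2 fold change of -1.99. CCNA2, the S and G2 cyclin, had 74.9 and 91.1 CPM and then 4.42 and 4.82 CPM (-4.17, SE 0.09). CDK1, the mitotic kinase, had 125 and 155 CPM and then 14.0 and 15.2 CPM (-3.27, SE 0.10). Falls were also called for CCNE2 (-3.43), CCNB1 (-3.00), the phosphatase CDC25C (-3.07), CDK2 (-1.91), the inhibitory kinase WEE1 (-1.99) and the CDK-binding protein CKS1B (151 and 181 CPM to 75.5 and 75.8 CPM, -1.13). CCNE1, the other cyclin E gene and a known E2F target, was the exception, with 8.83 and 8.27 CPM in the controls and 7.81 and 7.87 CPM in the treated libraries. Its log2 fold change was -0.13 (95% interval -0.29 to 0.03, adjusted p = 0.208), although CCNE2 fell by over 3 on the same scale.

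Genes that license and fire replication origins were lower in 22 of 26 cases and higher in 1, with a median of -1.5. ORC1, the cell-cycle regulated subunit of the origin recognition complex, had 72.6 and 70.8 CPM and then 6.93 and 7.56 CPM (-3.31, SE 0.08). CDT1, which loads the MCM helicase, had 171 and 156 CPM and then 19.5 and 17.9 CPM (-3.12, SE 0.08). The remaining parts of the active helicase fell with it, CDC45 by 3.26 and the GINS subunit GINS2 by 2.93 on the log2 scale. MCM6 had the lowest of the 6 helicase subunits, -1.97, and MCM2 the highest, -1.15; MCM7, with 767 and 738 CPM and then 291 and 282 CPM, changed by -1.39. Against its list, ORC4, an origin recognition subunit, had 73.0 and 81.3 CPM and then 92.1 and 98.2 CPM (0.30, SE 0.06, adjusted p = 0.000325).

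Of 33 replication fork genes, 32 were lower and 0 higher (median -1.52). PCNA, the sliding clamp, had 237 and 287 CPM and then 38.2 and 38.2 CPM (-2.78, SE 0.08). CLSPN, which relays the replication checkpoint, fell by 3.48, the histone chaperone ASF1B by 2.78 and the chromatin ATPase ATAD2 by 2.33 on the log2 scale. Only POLE3, a histone-fold subunit of polymerase epsilon, was not called (-0.15, adjusted p = 0.112). Deoxynucleotide synthesis was lower in 11 of 13 genes and higher in 0. RRM2, the S-phase subunit of ribonucleotide reductase, had 162 and 166 CPM and then 6.26 and 6.72 CPM (-4.66, SE 0.08), while RRM1, its partner, had 219 and 219 CPM and then 89.6 and 91.5 CPM (-1.27, SE 0.05). TK1, thymidine kinase, changed by -3.89 and TYMS, thymidylate synthase, by -3.50.

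Repair by homologous recombination and the Fanconi pathway, which acts in S and G2, followed: 26 of 27 genes were lower and 0 higher (median -1.44). BRCA1 had 77.9 and 71.6 CPM and then 12 and 13.6 CPM (-2.55, SE 0.07), and its partner BARD1 changed by -2.50. FANCI, of the Fanconi core response, had 152 and 155 CPM and then 36.0 and 36.9 CPM (-2.07). The kinase ATR was not called (0.03, 95% interval -0.10 to 0.16).

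Histone genes did not move as 1 group. Of 48 tested, 7 were higher (14.6%) and 13 lower (27.1%), beside 20.3% and 19.7% of all tested genes, with a median of -0.36 (-0.32 with members at the floor of 3 counts set to their bound). The median turned positive where at least 10 counts in every library were required (0.30) or where the 4 NB1643 libraries were fitted alone (0.12). HIST1H3E had 1.65 and 1.63 CPM and then 5.02 and 5.04 CPM (1.61, SE 0.12), and HIST1H2BK, HIST2H2BE and HIST3H2A rose by 1.0, 0.89 and 0.94. HIST1H3B was lower, at 23 and 22 counts and then 4 and 1 counts. HIST1H1B had 10 and 8 counts in the controls and 0 in both treated libraries, at least 2.70-fold lower. The number of lower members was 7 without palbociclib library 2, 7 with the 4 NB1643 libraries fitted alone and 3 with at least 10 counts in every library. The genes share near-identical sequence, so their counts are uncertain.

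Genes of mitosis fell furthest. Of 23 mitotic kinases and checkpoint genes 22 were lower and 1 higher (median -2.43), of 24 kinetochore and centromere genes 24 were lower (median -2.15), and of 30 kinesins, condensin and cytokinesis genes 30 were lower (median -2.45). AURKB (GRCh37 chr17:8108051-8113918), the kinase of the chromosomal passenger complex, had 70.6 and 70.1 CPM in the controls and 1.33 and 1.02 CPM with palbociclib, a log2 fold change of -5.87 (SE 0.11). PLK1, the polo kinase, had 83.2 and 80.7 CPM and then 5.05 and 5.12 CPM (-4.01, SE 0.07). The treated libraries thus held a small part of the control level of both kinases. BIRC5, a passenger subunit also known as survivin, changed by -3.74, and UBE2C, the ubiquitin-conjugating enzyme of the anaphase-promoting complex, by -4.15.

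CENPA, the centromeric histone, had 33.3 and 37.3 CPM and then 1.20 and 0.840 CPM (-5.08, SE 0.12), and its chaperone HJURP had 58.8 and 60 CPM and then 5.28 and 4.75 CPM (-3.56, SE 0.07). The NDC80 complex genes SPC25 and NUF2 changed by -3.86 and -3.48. MKI67, the proliferation marker Ki-67, had 285 and 225 CPM and then 6.83 and 6.68 CPM (-5.24, SE 0.16). TOP2A, the topoisomerase of chromosome condensation, had 507 and 507 CPM and then 21.5 and 21.1 CPM (-4.57, SE 0.07). KIF20A, a cytokinesis kinesin, and HMMR, a spindle protein, changed by -5.30 and -4.75. Treated and control libraries were far apart in these genes, without overlap. The naming rule itself required that separation of CENPA, MKI67, TOP2A, KIF20A and HMMR. The checkpoint gene BUB3 fell by only 0.31 on the log2 scale. MAD1L1, another checkpoint gene, went the other way (28.2 and 24.3 CPM to 32.7 and 30.2 CPM, 0.26), a call lost without control library 2 (adjusted p = 0.15) or without palbociclib library 1 (0.101). FAM111B, a cell-cycle regulated protease, was also among the 12 lowest fold changes (4.93 and 4.62 CPM to 0.153 and 0.123 CPM, -5.07).

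**Figure D3:**
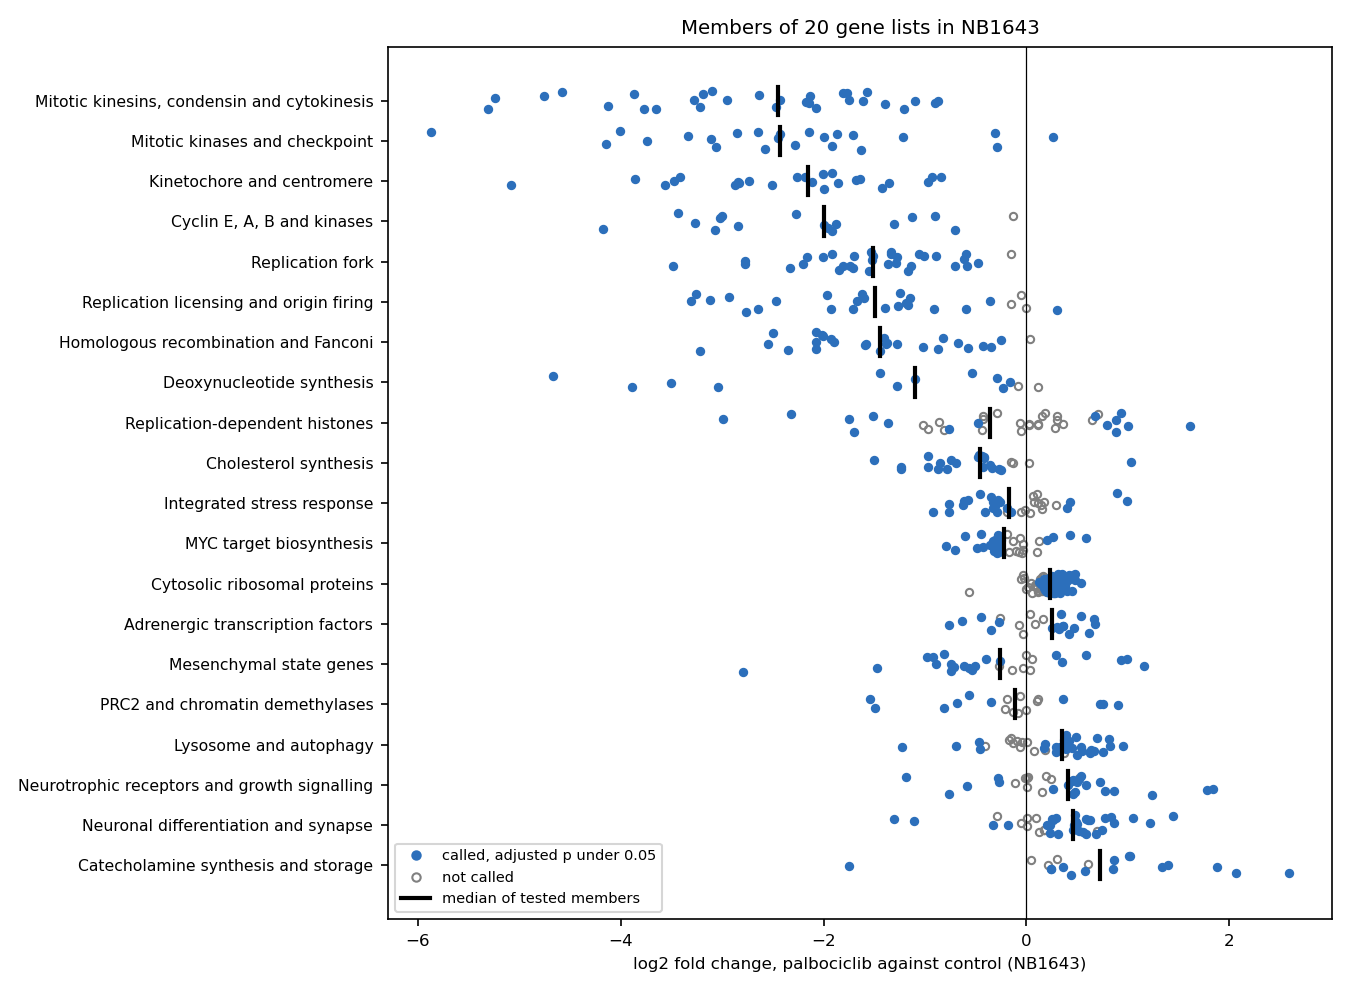
Log2 fold change of palbociclib against control in NB1643 (x axis) for the tested members of 20 gene lists (y axis), filled where called and open where not, with a bar at the median of the tested members; members at 3 counts or fewer in both libraries of a group are not drawn. The mitotic and replication lists lie almost wholly below 0 and the catecholamine, neuronal and lysosome lists mostly above 0.

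The 12 highest fold changes among genes with at least 1 CPM included several of nerve and secretory cells. CNGB1, a subunit of cyclic nucleotide-gated channels, had 11 and 4 counts in the controls and 138 and 104 counts with palbociclib (0.150 and 0.0767 CPM to 2.12 and 2.13 CPM, log2 fold change 4.13, SE 0.33). CYB561, a cytochrome of chromaffin granules that supplies electrons for dopamine beta-hydroxylase, had 0.901 and 0.959 CPM and then 5.95 and 5.14 CPM (2.59, SE 0.14). NOS1, the neuronal nitric oxide synthase, had 3.57 and 3.16 CPM and then 18.0 and 18.5 CPM (2.43, SE 0.11). All 3 were several-fold above their controls, and the naming rule took only genes with both treated libraries on 1 side of both controls. SEMA3G and PLXNA4, a semaphorin and a semaphorin receptor, rose by 2.27 and 1.99, the synaptotagmin SYT5 by 2.18 and the phospholipase PLA2G4C by 2.37. NHLRC4 (2.12), SLC35D2 (2.07), RP11-700H13.1 (2.14), RP11-481F24.3 (2.04) and DBH complete the 12.

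Genes of the catecholamine pathway were higher in 14 of 20 cases and lower in 1 (median 0.73, or 0.60 without MAOB, which was at the floor in both groups). DBH (GRCh37 chr9:136501485-136524451), dopamine beta-hydroxylase, which makes noradrenaline, had 13.0 and 13.1 CPM in the controls and 56.0 and 53 CPM with palbociclib (2.07, SE 0.10, adjusted p = 3.86e-12). SLC6A2, the noradrenaline transporter, had 54.9 and 48.2 CPM and then 189.8 and 190.2 CPM (1.88, SE 0.07). Both lay more than 3-fold above their controls in each treated library. DDC, which makes dopamine from DOPA, had 57.2 and 58.1 CPM and then 116 and 118 CPM (1.03, SE 0.06), the vesicular transporter SLC18A1 rose by 1.34 and PNMT, which makes adrenaline, by 1.02. TH, the rate-limiting first enzyme, had 16.5 and 14.5 CPM and then 18.3 and 17.6 CPM, which was not called (0.21, 95% interval 0.00 to 0.41, adjusted p = 0.101).

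The granins, which pack the dense-core granules, rose. CHGA, chromogranin A, had 381 and 372 CPM and then 1021 and 959.8 CPM (1.39, SE 0.06), and CHGB had 1280.0 and 1331 CPM and then 2363 and 2349.9 CPM (0.85, SE 0.06). SCG2, secretogranin II, rose by 0.86. SCG5, which encodes the chaperone 7B2 of a prohormone convertase, went against the list, from 1.32 and 1.34 CPM to 0.414 and 0.369 CPM (-1.75, SE 0.21).

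Of 40 genes of neuronal differentiation and synapse, 27 were higher and 4 lower, with a median of 0.46. DCX, doublecortin, a microtubule protein of migrating neurons, had 90.1 and 85.5 CPM and then 233 and 247 CPM (1.45, SE 0.08). L1CAM, an adhesion molecule of axons, had 162 and 146 CPM and then 364 and 352 CPM (1.22, SE 0.05). STMN2, a stathmin of growth cones, had 1997 and 2219.5 CPM and then 2945 and 2993 CPM (0.49, SE 0.06). In all 3 the treated libraries stood above both controls, by most in DCX. The synaptic vesicle protein SYP rose by 0.83, the neurofilament NEFM by 0.48 and the dendritic MAP2 by 0.45. GAP43, a growth cone protein, was not called (0.12, 95% interval -0.03 to 0.27), nor was the synaptic SNAP25 (0.01, 95% interval -0.12 to 0.13). The 4 lower members were NLGN1 (2.78 and 2.72 CPM to 1.01 and 1.23 CPM, -1.31), a neuroligin, ELAVL2 (-0.33), an RNA-binding protein, and NRXN3 (-1.10) and SYT4 (-0.18). The call of NRXN3 was lost without any one of the 4 libraries. It was also lost with DESeq2 (adjusted p = 0.0704), limma-voom (0.0657), upper-quartile scaling (0.0558) and the replicate number as a block (0.0614). The same held with the 4 NB1643 libraries fitted alone (0.103). That of SYT4 was lost without control library 2, palbociclib library 1 or palbociclib library 2. It was also lost with DESeq2 (0.0729), upper-quartile scaling (0.125) and the 4 NB1643 libraries alone (0.0825). In each of these last fits 2 members of the list were lower.

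Receptors and growth signalling genes were higher in 16 of 31 cases (51.6%) and lower in 6 (19.4%), with a median of 0.41. Over all tested genes these shares were 20.3% and 19.7%, so the share of lower genes was near the background. RET (GRCh37 chr10:43572512-43625799), the receptor of the GDNF family, had 50.6 and 44.7 CPM and then 172 and 170.4 CPM (1.84, SE 0.07, adjusted p = 1.47e-13). GFRA2, a coreceptor of RET, rose by 0.78, and DUSP6, a phosphatase that ERK signalling induces, by 0.86. ALK, a receptor kinase mutated in part of neuroblastomas, had 156 and 138 CPM and then 196 and 196 CPM (0.41, SE 0.08). These receptors were thus higher in both treated libraries, RET by far more than ALK. MET rose from 9 and 3 counts to 20 and 18 counts. PDGFRA, a receptor of mesenchymal cells, had 97.0 and 95.9 CPM and then 40.8 and 43.8 CPM (-1.19, SE 0.08), and FGFR2 (-0.77), ERBB4 (-0.59), SPRY2 (-0.28) and PDGFRB (-0.27) were also lower. FGFR3 had 31 and 12 counts and then 1 and 1 counts, at least 6.08-fold lower.

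**Figure D4:**
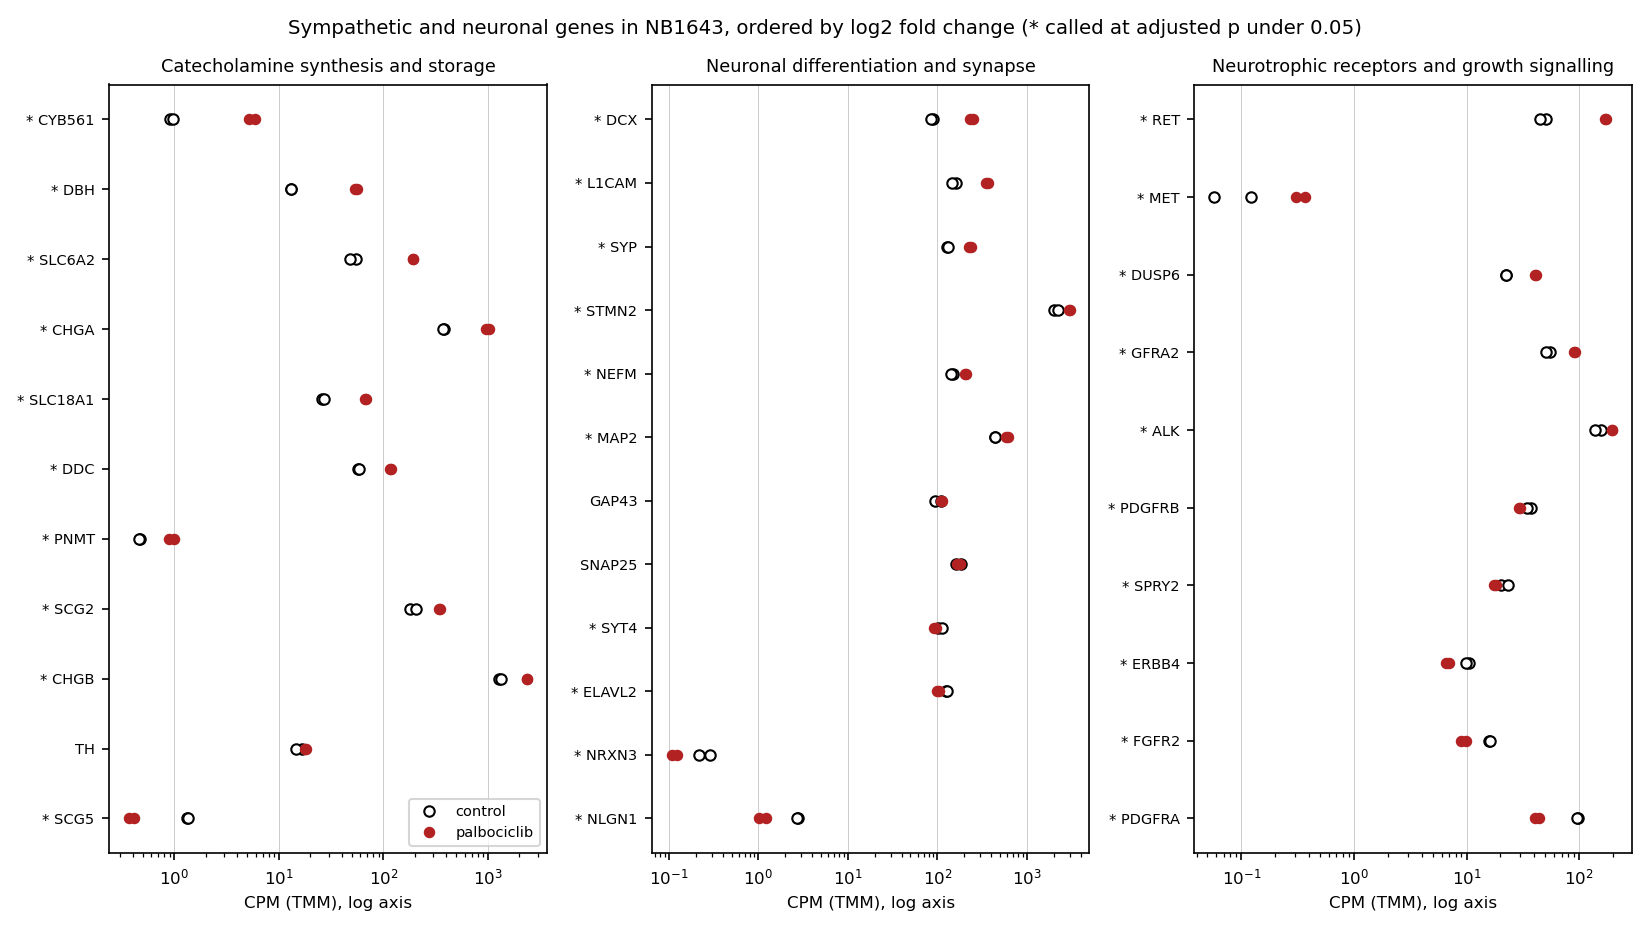
Level in CPM (x axis, log scale) in the 2 control (open) and 2 palbociclib (filled) libraries of NB1643 for genes of 3 lists that are named in the text, ordered by log2 fold change, with * before called genes; members at 3 counts or fewer in both libraries of a group are not drawn. CYB561, DBH, SLC6A2, DCX and RET stand well above their controls, and SCG5, NLGN1 and PDGFRA below them.

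Transcription factors that define the adrenergic state of neuroblastoma changed by less. Of 23, 12 were higher (52.2%) and 5 lower (21.7%), with a median of 0.25, or 0.15 without control library 2. Over all tested genes these shares were 20.3% and 19.7%, so the share of lower genes was near the background. GATA2 had 329 and 309 CPM and then 526 and 496 CPM (0.68, SE 0.05). GATA3 rose by 0.34 and ISL1, a LIM homeobox factor, by 0.47. HAND2 had 895 and 857 CPM and then 879.6 and 836 CPM, overlapping groups (-0.03, 95% interval -0.14 to 0.08). LMO3 (-0.77), INSM1 (-0.63), SIX3 (-0.45), SOX11 (-0.35) and EYA1 (-0.27) fell.

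Genes of the mesenchymal state were lower in 16 of 35 cases (45.7%) and higher in 6 (17.1%), beside 19.7% and 20.3% of all tested genes. The median was -0.26, or -0.39 with floor members at their bound and -0.42 without palbociclib library 2. SOX9, a neural crest factor, had 1.11 and 0.825 CPM and then 0.138 and 0.143 CPM (-2.79, SE 0.30). TWIST1 had 159.7 and 156 CPM and then 86.5 and 84.0 CPM (-0.89, SE 0.06), and VIM, vimentin, had 419 and 392 CPM and then 288 and 284 CPM (-0.51, SE 0.05). The cell-surface CD44 changed by -0.92. FOSL2, an AP-1 subunit, went the other way (101 and 88.6 CPM to 186 and 191 CPM, 0.99, SE 0.06), as did the ectonucleotidase NT5E (0.94), FN1 (0.59), THY1 (0.35), ZEB1 (0.29) and COL1A1 (1.16). The summed fibroblast markers, given above, moved with this list, and their part in it was not tested. The calls of COL1A1 and FN1 were lost without control library 1 (adjusted p = 0.0644 and 0.0543). LUM, a proteoglycan of the fibroblast marker list, had 28.9 and 31.8 CPM and then 7.53 and 6.99 CPM (-2.06, SE 0.13).

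MYCN (GRCh37 chr2:16080672-16087129), the oncogene amplified in part of neuroblastomas, was among the 8 genes with the largest loss in CPM. It had 3093 and 3257 CPM in the controls and 2232 and 2166 CPM with palbociclib (-0.53, SE 0.05, adjusted p = 1.55e-07). Both treated libraries stayed above 2000 CPM but below both controls, a separation that the rule for this rank required. In the MYC network, 3 of 12 genes were higher and 3 lower, beside 20.3% and 19.7% of all tested genes. MXD3, a partner of MAX that is expressed in S phase, fell from 24.4 and 23.2 CPM to 1.52 and 1.41 CPM (-4.02, SE 0.11). MXD4, a repressor of MYC targets, rose from 75.0 and 62.0 CPM to 161 and 154 CPM (1.20, SE 0.07), and MXD1, of the same class, by 0.84. MYC itself was near the floor, with 44 and 5 counts and then 5 and 3 counts, and its call rested on control library 1 (adjusted p = 0.739 without it).

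Of 30 biosynthesis genes that MYC proteins are known to drive, 15 were lower and 4 higher (median -0.22). ODC1, ornithine decarboxylase, had 313 and 314 CPM and then 182 and 180.0 CPM (-0.79, SE 0.05). NPM1, nucleophosmin, had 2390.5 and 2810.5 CPM and then 1704 and 1721 CPM (-0.60, SE 0.06), and LDHA changed by -0.71. UBTF, the factor of RNA polymerase I, went up, from 108 and 99.5 CPM to 141 and 139 CPM (0.43, SE 0.05), as did PPAN (0.58), RRN3 (0.21) and POLR1A (0.26). The call of POLR1A was lost without control library 2 (adjusted p = 0.542), palbociclib library 1 (0.103) or palbociclib library 2 (0.0817), and with library totals (0.0747).

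Cytosolic ribosomal proteins were higher in 48 of 75 cases and lower in 0 (median 0.23). RPL3 had 4709 and 4977 CPM and then 6274 and 6226 CPM (0.37, SE 0.04), and RPL34 had 478 and 580.5 CPM and then 774 and 762 CPM (0.54, SE 0.07). The summed level was 104520 and 121850 CPM in the controls and 134950 and 130580 CPM in the treated libraries, so the controls were further from each other than the treated libraries were. Without control library 1, 23 members were higher and 3 lower, without palbociclib library 1, 28 were higher, and with the 4 NB1643 libraries fitted alone, 28 were higher. The median was 0.12 without control library 1 and 0.35 without control library 2. Processed pseudogenes share reads with this family, and how shared reads were counted was not tested. The elongation factors EEF1A1 (0.43) and EEF2 (0.51), and LRRC75A-AS1 (0.51), were also among the largest gains in CPM. RPS3A, another, lost its call without control library 1 (adjusted p = 0.375), palbociclib library 1 (0.0961) or palbociclib library 2 (0.0914). Apart from MYCN and NPM1, the largest losses in CPM were HNRNPA1 (-0.64) and HNRNPA2B1 (-0.82), which bind nascent RNA, the tubulins TUBA1B (1095 and 1158 CPM to 311 and 307 CPM, -1.87) and TUBB (-0.71), PTMA (-0.36) and the linker histone H1F0 (-0.91).

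In the BCL2 family 6 of 16 genes were higher (37.5%) and 2 lower (12.5%), beside 20.3% and 19.7% of all tested genes. BCL2, which blocks apoptosis, had 169 and 164 CPM and then 232 and 244 CPM (0.52, SE 0.06), and BCL2L1, of the same function, rose by 0.54. BBC3, the pro-apoptotic PUMA, had 16.5 and 14.5 CPM and then 25.8 and 21.4 CPM (0.61, SE 0.09). PMAIP1, the pro-apoptotic NOXA, had 59.8 and 87.6 CPM and then 36.1 and 38.3 CPM (-0.98, SE 0.12), and BAX changed by -0.44.

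Lysosome and autophagy genes were higher in 23 of 40 cases and lower in 4 (median 0.35). MAP1LC3B, the autophagosome protein LC3B, had 51.7 and 57.9 CPM and then 93.9 and 99.6 CPM (0.82, SE 0.06), and ATP6AP1, an accessory subunit of the proton pump, had 76.1 and 77.3 CPM and then 137 and 133 CPM (0.82, SE 0.05). Progranulin, encoded by GRN, rose by 0.75, the autophagy receptor SQSTM1 by 0.54 and PSAP by 0.29. MITF, a factor that drives lysosomal genes, fell from 5.66 and 5.39 CPM to 2.19 and 2.56 CPM (-1.23), and CTSH (-0.70) and CTSF (-0.46) also went against the list. The letters CACGTG, the E-box that factors of the MITF family and MYC bind, were in 29.4% of 34 windows of this list and 31.4% of 35 windows of the biosynthesis list, against 8.81% for tested genes.

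Cholesterol synthesis was lower in 20 of 24 genes and higher in 1 (median -0.45). HMGCS1, which makes HMG-CoA, had 193 and 205 CPM and then 83.2 and 86.3 CPM (-1.23, SE 0.07). INSIG1, the sterol sensor that is itself a target of the pathway's factor SREBP-2, had 43.2 and 45.3 CPM and then 18.6 and 18.9 CPM (-1.24, SE 0.08). Both treated libraries held less than 50% of each control in both genes. ACAT2, a thiolase, changed by -1.5. SREBF2, which encodes SREBP-2, was not called (584 and 523 CPM and 565 and 559.7 CPM, 0.02). TM7SF2, a sterol reductase, rose from 12.4 and 11.3 CPM to 25.4 and 23.0 CPM (1.03).

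The integrated stress response, by which ATF4 raises amino acid synthesis, was lower in 17 of 34 genes and higher in 4 (median -0.17, or -0.07 without control library 1), and higher in 7 with upper-quartile scaling. SHMT2, the mitochondrial serine enzyme, had 254 and 250.2 CPM and then 136 and 131 CPM (-0.92, SE 0.06), and PHGDH, which starts serine synthesis, changed by -0.76. ATF4 itself had 701 and 756 CPM and then 615 and 599 CPM (-0.26, SE 0.05). ATF5 (1.0), the mTOR inhibitor DDIT4 (25.4 and 24.9 CPM to 47.7 and 46.0 CPM, 0.90), DDIT3 (0.43) and WARS (0.40) rose instead, DDIT3 without a call when control library 1 (adjusted p = 0.0588) or palbociclib library 1 (0.0506) was left out. Of 30 genes of glycolysis and hypoxia, 13 were lower (43.3%) and 5 higher (16.7%), beside 19.7% and 20.3% of all tested genes. The lower ones included the collagen hydroxylase P4HA1 (22.7 and 25.1 CPM to 12.6 and 12.6 CPM, -0.92) and PDK1 (-0.81). The higher ones, a share under the background, included the neural aldolase ALDOC (0.90) and the glucose transporter SLC2A1 (0.54). GAPDH was not called (-0.07). Without control library 2, 3 genes of this list were higher.

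The study centres on the H3K27 demethylase KDM6B, so its list of Polycomb subunits and demethylases was described in NB1643. KDM6B had 62.0 and 50.2 CPM in the controls and 96.6 and 88.7 CPM with palbociclib (0.72, SE 0.08, adjusted p = 6.13e-07). Both treated libraries were above both controls. KDM6A, its relative, was not called (0.10, 95% interval -0.02 to 0.22). The opposing methyltransferase EZH2, a known E2F target, had 59.7 and 62.9 CPM and then 21.7 and 21.8 CPM (-1.5, SE 0.06), and the other core subunits EED and SUZ12 changed by -0.81 and -0.69. PHF19, an accessory subunit, fell by 1.54 on the log2 scale. The H3K4 demethylase KDM5B had 154 and 140.1 CPM and then 270.4 and 278 CPM (0.90, SE 0.07), and KDM4A and JARID2 rose by 0.75 and 0.36. In all, 4 of 18 genes were higher and 6 lower, beside 20.3% and 19.7% of all tested genes, so the share of higher genes was near the background. The median of the list was -0.11, and -0.02 without control library 1.

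Genes of the senescence-associated secretome moved in both directions: of 25 tested, 4 were called higher and 5 lower, and 9 were at the floor in both groups. IL6, IL1A and IL1B had 0 counts in all 4 libraries. HMGB2, a chromatin protein lost in senescent and resting cells, had 531 and 606 CPM and then 64.8 and 65.6 CPM (-3.12, SE 0.07), and lamin B1, LMNB1, had 102 and 103 CPM and then 36.3 and 36.8 CPM (-1.49, SE 0.05). TGFB1 (0.73), TIMP1 (0.71) and IGFBP5 (97.4 and 87.5 CPM to 158 and 158 CPM, 0.77) rose. The other gene called higher, CCL2, had 0 and 0 counts and then 2 and 3 counts, so no fold is given. Interferon genes gave 4 higher and 4 lower of 24, of which 1 higher, IFI44, was likewise at the floor in both groups; among the lower was OAS3 (11.6 and 10.2 CPM to 4.73 and 4.78 CPM, -1.20). Antigen presentation gave 4 higher and 2 lower of 17 (1 higher without control library 1, 2 without control library 2 or palbociclib library 1), with its activator NLRC5 at -1.13 and B2M not called (-0.21, adjusted p = 0.0842). AP-1 and immediate early genes gave 4 higher and 4 lower of 22 (1 lower without control library 1, 2 without palbociclib library 1), and JUN was not called (0.15, adjusted p = 0.0856). These shares stand beside 20.3% higher and 19.7% lower over all tested genes. Some alternatives called B2M lower, among them library totals (adjusted p = 0.0405) and the replicate number as a block (0.0365). JUN was called higher with DESeq2 (0.0378) and with upper-quartile scaling (0.0151), among others.

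Genes lost to the floor of 3 counts in both treated libraries, with at least 1 CPM in both controls, were CHST9 (109 and 80 counts, then 3 and 3), a sulfotransferase, at least 28.1-fold lower, and NRGN (82 and 89 counts, then 2 and 2), the neuronal neurogranin, at least 26.3-fold lower.

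The response of NB1643 was then compared with that of NB1691, which had its own controls and the same 3 μM for 72 h. The control levels of the lines were far apart for some regulators. CDK4, a target of the drug, had 221 and 227 CPM in NB1643 against 5676 and 5817 CPM in NB1691. CDKN2A had 4.5 and 3.66 CPM against 215 and 227 CPM. The part of such levels in the responses was not tested. In NB1691 7269 genes were called (32.8%), 3847 higher (17.4%) and 3422 lower (15.5%). Genes lower in both lines numbered 1888, which is 43.4% of those lower in NB1643 and 55.2% of those lower in NB1691, and genes higher in both numbered 1766 (39.4% and 45.9%). Genes called in opposite directions were 392 lower in NB1643 and higher in NB1691, and 238 the other way. The difference itself was called for 4875 genes (22.0%), with 2222 log2 fold changes higher in NB1643 than in NB1691 (10.0%) and 2653 lower (12%). That split depended on the scaling: 45.6% of calls were higher in NB1643 with TMM, 56.5% with library totals and 57.9% when only the 8 libraries of both lines were fitted.

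Part of the replication and repair genes had a lower fold change in NB1643, more of them in the fork list than in the licensing or the repair list. Of 33 fork genes 22 had a lower fold change in NB1643 than in NB1691 and 1 a higher one, of 26 licensing genes 12 and 2, and of 27 repair genes 12 and 1. PCNA changed by -2.78 in NB1643 and -1.59 in NB1691 (difference -1.18, SE 0.11, adjusted p = 5.03e-07). Among mitotic genes the difference went both ways, with 9 kinases and checkpoint genes higher in NB1643 and 6 lower, and 10 kinesin-list genes higher and 11 lower. AURKB changed by -5.87 in NB1643 and -3.59 in NB1691 (difference -2.29, SE 0.15). Of the E2F family, E2F1 (-2.41 and -1.40), E2F7 (-5.14 and -2.29) and E2F8 (-6.55 and -4.02) all fell further in NB1643. For CCND1 (0.80 and 0.89) the difference was -0.09 (SE 0.07, adjusted p = 0.411), and it was called without control library 2 of NB1643 (adjusted p = 0.0151).

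Control MYCN was 3093 and 3257 CPM in NB1643 against 86.1 and 86.5 CPM in NB1691. MYCN differed in direction, with -0.53 in NB1643 and 0.27 in NB1691 (difference -0.80, SE 0.07, adjusted p = 3.66e-07). So did PDGFRA (-1.19 and 0.74, difference -1.93) and SCG5 (-1.75 and 0.50, difference -2.25), which were lower in NB1643 and higher in NB1691, and NEFM (0.48 and -1.13), which was higher in NB1643 and lower in NB1691. In the catecholamine pathway DBH rose in NB1643 and was not called in NB1691 (2.07 against 0.26, difference 1.80, SE 0.14), whereas TH rose in NB1691 (1.12) and its difference was -0.91 (adjusted p = 0.0121). RET also rose more in NB1643 (1.84 against 0.56, difference 1.29, adjusted p = 3.37e-08). The neuronal list had 27 higher and 4 lower members in NB1643 and 29 and 3 in NB1691.

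Cholesterol synthesis and the stress response also separated the lines. In NB1643 20 of 24 cholesterol genes were lower, in NB1691 9, and 14 had a lower fold change in NB1643 by the test of the difference. HMGCS1 changed by -1.23 and -0.17 (difference -1.06, SE 0.09). Of 34 stress response genes, 17 were lower and 4 higher in NB1643 and 3 lower and 15 higher in NB1691, and the difference was called lower for 17 and higher for 4.

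The 5 highest differences belonged to CNGB1 (difference 3.11), KLHL14 (2.80), FAM20C (2.70), CYB561 (2.42) and SLC35D2 (1.92). FAM20C, a kinase of secreted proteins, changed by 0.37 in NB1643 and -2.33 in NB1691, and KLHL14 by -0.71 and -3.52. The 5 lowest belonged to ARHGEF26 (-3.70 against 0.09), FLRT2 (-3.36 against 0.29), SMCO4 (-3.42 against 0.04), PHLDB2 (-3.04 against 0.21) and the endothelin receptor EDNRB (-3.11 against 0.13). These 5 fell by over 3 on the log2 scale in NB1643, and their values in NB1691 lay between 0.04 and 0.29. At 300 nM their values were -1.27, -0.92, -1.11, -1.78 and -1.72 in CHLA15, all called lower, and -1.03, -1.18, -1.45, -2.06 and -2.39 in CHLA20, called lower for all but ARHGEF26. Control levels also differed between NB1643 and NB1691 for some of these genes. PHLDB2 had 2.70 and 2.67 CPM against 491 and 509.5 CPM, and CYB561 0.901 and 0.959 CPM against 49.0 and 50.6 CPM. They were closer for FLRT2 (4.20 and 3.70 against 3.74 and 3.37 CPM) and EDNRB (2.66 and 2.84 against 2.94 and 3.53 CPM).

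**Figure D5:**
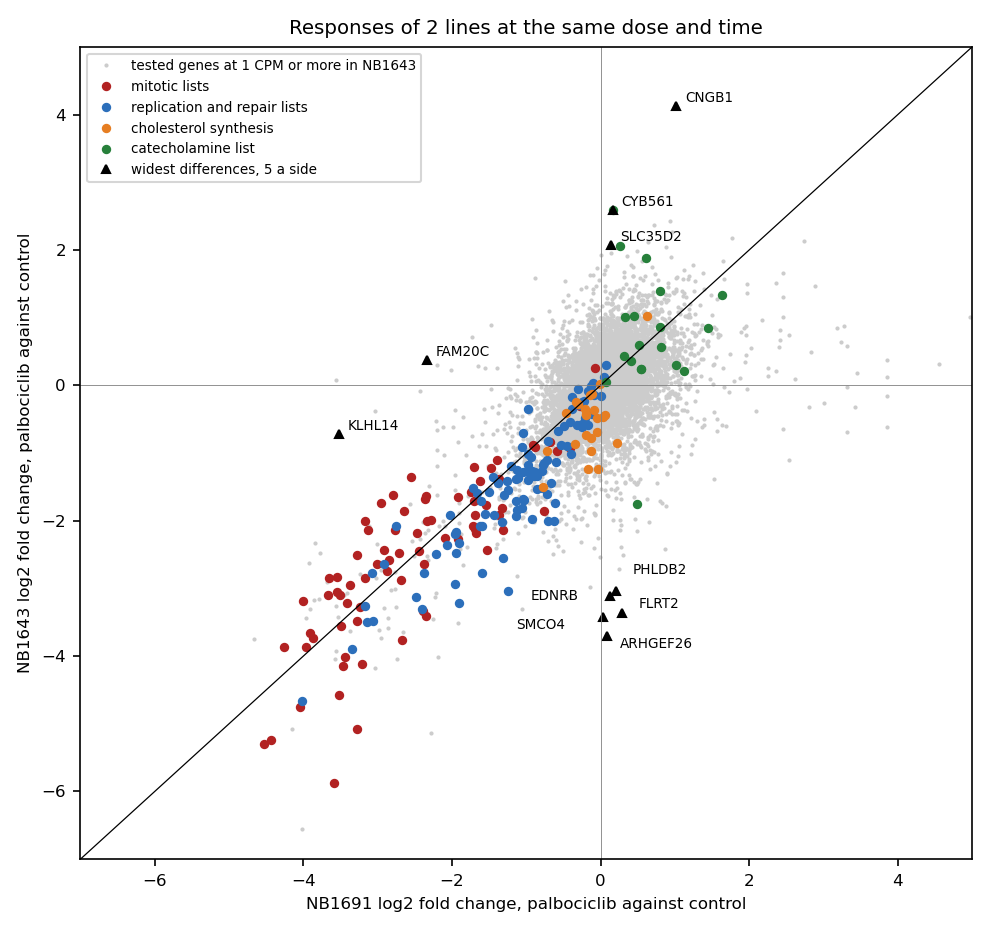
Log2 fold change of palbociclib against control in NB1643 (y axis) against that in NB1691 (x axis), both at 3 μM for 72 h, for tested genes at 1 CPM or more in NB1643 (grey), members of the mitotic, replication and repair, cholesterol and catecholamine lists (coloured) and the 10 genes with the widest differences (triangles); the diagonal marks equal values. The difference is marked by the distance from the diagonal, and ARHGEF26, FLRT2, SMCO4, PHLDB2 and EDNRB lie near 0 in NB1691 and below -3 in NB1643.

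CHLA15 and CHLA20 had another dose, so their values stand beside those of NB1643 without a test. At 300 nM, 29.8% and 29.6% of genes were called. Over all tested genes, 14.2% were higher and 15.6% lower in CHLA15, and 13.7% higher and 15.9% lower in CHLA20. PCNA changed by -2.78 in NB1643 at 3 μM and by -0.08 in CHLA15 and -0.50 in CHLA20 at 300 nM, MKI67 by -5.24, -0.37 and -0.58, and CCNE1 by -0.13, 0.90 and 0.57. CCND1 values were 0.80, 1.01 and 0.93, and MYCN values -0.53, -0.15 and -0.57. In CHLA15 neither PCNA (edgeR, adjusted p = 0.462) nor MYCN (0.389) was called. In the stress response list 32 of 34 genes were lower in CHLA15 and 33 in CHLA20, against 17 in NB1643. Of the 24 cholesterol genes, 18 were higher and 0 lower in CHLA15, and 1 higher and 20 lower in NB1643. In CHLA20 4 were higher and 5 lower, near the shares over all genes of that line.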

How the data were processed

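RNA-seq had been run on the 4 NB1643 libraries with paired-end reads, aligned by the authors with STAR to GRCh37 and counted per gene with HTSeq. The deposited values are raw counts per gene, not normalised, with 1 file per library. Whether counting used strand is not given in the sources used here, so overlapping and antisense genes are uncertain. Rows that name no gene were left out: reads without a feature made up 7.17 to 8.32% and ambiguous reads 3.52 to 3.85% of the NB1643 libraries. The files hold 0 columns of other samples. Groups were taken from the sample labels.

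Counts of all 16 palbociclib and control libraries were fitted together with edgeR 4.0.16 in R 4.3.3, with TMM scaling, a filter on low counts (filterByExpr), a mean for each of the 8 groups and a quasi-likelihood F test, so that the 4 lines shared 1 estimate of the spread with 8 residual degrees of freedom. p-values were two-sided and adjusted by the method of Benjamini and Hochberg over all 22133 tested genes. Contrasts were palbociclib minus control within NB1643 and the difference of that response from the response of NB1691. Values are log2 fold changes with SE, computed from the F statistic, and 95% intervals. CPM are counts per 1000000 of the TMM-scaled total. The floor was 3 counts per library. Where 1 group lay at or under it, the fold is a bound against the floor, and where both did, no fold is given. The highest floor was 0.0615 CPM. Intervals cover the spread between libraries, and the floor covers counting error only.

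On simulated data, the NB1643 contrast recovered 99 of 100 genes changed by 1 and 82 of 100 changed by 0.5 on the log2 scale, with 6 calls among 21569 unchanged genes. For the difference between lines these values were 93, 51 and 5. The simulation gave every gene and library the same dispersion, and it drew the changed genes only from those with higher counts in NB1643. It did not model the larger spread between the NB1643 controls, so these rates need not hold for the real libraries.

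Alternatives were limma-voom 3.58.1 (the test of the study), DESeq2 1.42.0, other scalings, filters and thresholds, fewer libraries, and the replicate number as a block. Within each line the deviations of same-numbered libraries correlated at -0.063 (NB1643), -0.028 (NB1691), 0.048 (CHLA15) and -0.003 (CHLA20). Same-numbered libraries thus showed no shared shift in expression, and whether they were handled together cannot be told from these values. The 2 NB1643 controls differed by more than sampling noise (chi-square over degrees of freedom 24.3), as did the 2 treated libraries (3.75).

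The comparison and gene lists were chosen with earlier results of these data known. Genes were named by rule, starting with all members of the axis, E2F and inhibitor lists. The 12 highest and 12 lowest fold changes and the 8 largest gains and losses in CPM were taken among called genes with at least 1 CPM. These ranks took only genes with both treated libraries on the same side of both controls, so that separation was set by the rule. In each other list, up to 4 called members, the member with the highest CPM and members against the direction were named. The 5 highest and 5 lowest differences from NB1691 and genes at the floor in 1 group completed the rule. ATR, CCNB1, CCNE1, CD3E, CD44, CDH5, CDK2, DDC, DUSP6, GAP43, GATA3, GFRA2, GRN, IL1A, IL1B, IL6, KDM6A, MAOB, MAP2, MCM2, MCM6, NEFM, PECAM1, PHGDH, PNMT, POLE3, SCG2, SLC18A1, SNAP25, SQSTM1, SUZ12, SYP, TH, TWIST1 and WEE1 were named after their values were seen. Gene positions are from GENCODE for GRCh37, matched by symbol for 29395 genes and by an older symbol for 1316. Promoter sequences are RefSeq's on GRCh38.p14, and 13321 of the 22087 tested genes kept for reporting had one. Some genes are not reported here.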

Additional observations from a re-analysis of the deposited data

Results flagged for a closer look

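Of the 254 genes named by rule, those at the floor in an NB1643 group were left out here. CHST9 and NRGN are among them, although their difference was also called. For 151 of the others the responses of NB1643 and NB1691, both at 3 μM for 72 h, differed by the test of the difference itself (edgeR, adjusted p under 0.05). Of these, 65 are given: genes of the axis, E2F and inhibitor lists, genes with the highest and lowest values, and every 1 of the 151 called in opposite directions. NEFM, named after its values were seen, is given with the comparison of both lines instead. Each value is the log2 fold change in NB1643 minus that in NB1691. Opposite calls were found for 19 of the 151 genes. Of these, ENO2, CCNH, SYT4 and NRXN3 lost their NB1643 call when edgeR was run on the 4 NB1643 libraries alone (adjusted p = 0.102, 0.078, 0.0825 and 0.103).

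Higher in NB1643 and lower in NB1691 were FAM20C 2.70 (0.37 against -2.33), MET 2.01 (1.78 against -0.23), NT5E 1.57 (0.94 against -0.63), TGFB1 1.06 (0.73 against -0.33), PLK2 0.87 (0.51 against -0.35), UBTF 0.61 (0.43 against -0.18) and ENO2 0.29 (0.15 against -0.14), where the bracket gives NB1643 and then NB1691. Lower in NB1643 and higher in NB1691 were CCNH -0.52 (-0.24 against 0.27), ELAVL2 -0.73 (-0.33 against 0.40), MYCN -0.80 (-0.53 against 0.27), SYT4 -1.06 (-0.18 against 0.88), CTSF -1.12 (-0.46 against 0.66), P4HA1 -1.33 (-0.92 against 0.41), ERBB4 -1.62 (-0.59 against 1.04), PDGFRA -1.93 (-1.19 against 0.74), SCG5 -2.25 (-1.75 against 0.50), LUM -2.33 (-2.06 against 0.27), NRXN3 -2.47 (-1.10 against 1.36) and PHLDB2 -3.25 (-3.04 against 0.21).

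Among the other genes, a higher value in NB1643 was found for CNGB1 3.11, KLHL14 2.80, CYB561 2.42, SLC35D2 1.92, DBH 1.80, PLA2G4C 1.65, PLXNA4 1.5, NOS1 1.5, NHLRC4 1.48, SEMA3G 1.30, RP11-481F24.3 1.16, CDKN1A 0.77, CDKN2D 0.55 and PTMA 0.36. Regulators of the G1 phase with a lower value in NB1643 were E2F7 -2.85, CCND2 -2.67, E2F8 -2.53, E2F1 -1.0, E2F2 -0.79, CDKN2A -0.74, CDKN1B -0.65, CDKN1C -0.56, E2F5 -0.56, RBL1 -0.46, TFDP1 -0.38, CDK6 -0.33 and CDKN2C -0.30. Genes of S phase and mitosis with a lower value were AURKB -2.29, CENPA -1.80, CCNA2 -1.14, TOP2A -1.06, FAM111B -0.91, MKI67 -0.80, KIF20A -0.78, HMMR -0.71, UBE2C -0.68 and RRM2 -0.65. The remaining genes with a lower value were ARHGEF26 -3.79, FLRT2 -3.65, SMCO4 -3.46, EDNRB -3.25, CHGB -0.59, TUBA1B -0.58, NPM1 -0.40, STMN2 -0.28 and TUBB -0.25. The explanation of these differences was not tested.

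No group here has 4 or more libraries, so single libraries could not be tested as outliers.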

How the results depend on the processing

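Between 3351 and 4604 genes were called lower and between 3453 and 4445 higher in NB1643 when single libraries of that line were left out, and for the difference from NB1691 the ranges were 1924 to 3282 lower and 1502 to 2389 higher when single libraries of either line were left out. Requiring an absolute log2 fold change above 1 left 796 higher and 1066 lower genes in NB1643, and 381 and 660 for the difference. The other alternatives kept these counts within 1.5 times: NB1643 higher and lower genes were 4324 and 3685 with DESeq2, 4626 and 4301 with limma-voom, 5371 and 3679 with upper-quartile scaling, 4148 and 4708 with library totals, and 3403 and 3416 when the 4 NB1643 libraries were fitted alone. NR4A2 had counts in control library 1 only, and its fitted value, no bound on a fold, was 0 without that library (adjusted p = 1) and lowest, -5.44, without control library 2. With the replicate number as a replicate block, 4548 genes were higher and 4408 lower, and 2301 and 2746 for the difference. All 4 correlations of same-numbered libraries were under 0.1, and whether these libraries were handled together was not tested. The highest floor, 0.0615 CPM, limits genes near it. The causes of these shifts were not tested.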
